A study of Mus musculus with 6 samples.

Results

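The mouse mitochondrial genome carries 37 genes, and all 37 had a row in the gene expression table of this series, out of 52636 rows in all. They were chosen by their gene symbols, which start with mt-, and comprise 13 mRNAs, 2 rRNAs and 22 tRNAs by the table's own type column. The libraries are 3 labelled M1E5 Zfx F5 and 3 labelled M1E5 WT, all from MC-38, a mouse colon tumour cell line, without treatment. In the line labelled Zfx F5 the transcription factor gene Zfx had been targeted with CRISPR ribonucleoprotein. F5 is the only edited line among these samples, and whatever else sets that line apart is part of every comparison. The labels do not tie the 3 libraries of a group to separate cultures, and p-values reflect library-to-library spread, possibly only technical.

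Mitochondrial DNA is a small circle that is transcribed from both strands into long precursors, and most of the mRNAs and rRNAs in them are separated by tRNAs that are cut out. The mRNAs encode core subunits of the respiratory chain and of the ATP synthase, and the rRNAs and tRNAs serve their translation inside the organelle. A single polymerase, Polrmt, makes these RNAs with the factors Tfam and Tfb2m. On the mm10 reference, 28 genes lie on the plus strand, which the field calls heavy-strand transcripts, and 9 on the minus strand, called light-strand transcripts. The light-strand genes are mt-Nd6 and 8 tRNAs.

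Levels are given in CPM, counts scaled to 1000000 per library, recovered from the deposited log2 values. Each library held 18876673 to 24241864 reads, of which 1 read was worth 0.0413 to 0.0530 CPM. Zfx mRNA measured 125, 129 and 122 CPM in the libraries labelled Zfx F5, against 64.4, 69.7 and 68.9 CPM in those labelled WT. This level goes against a loss of the transcript, so both groups are named by their labels and each direction below rests on those labels. Of 11 colon epithelial markers, 4 (Epcam, Krt19, Krt20 and Muc2) had 0 reads in every library and only Cdh1 passed the filter. The summed level of all 11 lay between 3.95 and 4.18 CPM in the libraries labelled Zfx F5, against 0.636 to 1.07 CPM in those labelled WT. The summed level of the immune markers, in 7 rows, lay between 0 and 0.425 CPM in the libraries labelled Zfx F5 and between 0.0857 and 0.248 CPM in those labelled WT. The summed level of 6 fibroblast and endothelial markers lay between 138 and 141 CPM in the libraries labelled Zfx F5, against 371 to 384 CPM in those labelled WT, with Kdr at 0 reads. Within it Pdgfra was 3.14-fold and Dcn 3.53-fold lower, and Pecam1 2.96-fold higher, in the libraries labelled Zfx F5. The part of these marker differences in the results below was not tested.

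How well a read of 50 bases can be placed differs greatly among these genes, because parts of the mitochondrial genome have been copied into nuclear chromosomes. Each mitochondrial transcript was divided into all its 50-base windows, and each window was looked for, on both strands, in the GENCODE M21 transcripts of other genes. For mt-Co3, which encodes a subunit of cytochrome c oxidase, 734 of 735 windows had an exact copy, all in the pseudogene Gm28437 on chromosome 1. The aligned 783 bases of both were 100% identical. For mt-Nd2, a subunit gene of complex I, 81 of 989 windows had an exact copy in the pseudogene Gm13339 on chromosome 2, and 96.67% of 510 aligned bases were identical. The 60 bases at the centre of each alignment are shown because they show what a read from these places can and cannot tell apart. Capitals mark mismatches between gene and copy, of which there are 0 in the first pair and 3 in the second. The stretches lie at chrM:8968-9027 (plus strand) and chr1:24613551-24613610 (minus strand), and at chrM:4667-4726 (plus strand) and chr2:22590249-22590308 (minus strand), in mm10.
mt-Co3: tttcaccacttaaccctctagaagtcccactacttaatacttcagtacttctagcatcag
Gm28437: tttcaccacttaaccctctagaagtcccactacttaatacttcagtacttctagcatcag
mt-Nd2: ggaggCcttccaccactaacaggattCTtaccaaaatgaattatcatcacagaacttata
Gm13339: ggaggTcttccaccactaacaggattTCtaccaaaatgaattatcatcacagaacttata

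The chromosome 1 copy runs through 7 pseudogenes from 24611535 to 24616197, in reverse order on the minus strand. It repeats part of mt-Co1, all or nearly all of mt-Co2, mt-Atp6, mt-Co3, mt-Nd3 and mt-Nd4l, and part of mt-Nd4. The share of 50-base windows with an exact copy was 100% for mt-Co2, 99.5% for mt-Atp6, 99.9% for mt-Co3, 98.0% for mt-Nd3 and 98.8% for mt-Nd4l. It was 62.2% for mt-Nd4, 51.1% for mt-Co1, 8.19% for mt-Nd2, 7.61% for mt-Nd5 and 0% for mt-Nd1, mt-Nd6 and mt-Cytb. With up to 2 mismatches allowed, the share was 94.8% for mt-Co1, 62.2% for mt-Nd4, 51.1% for mt-Nd6 and 37.7% for mt-Nd2. On the same measure it was 32.2% for mt-Nd5, 23.3% for mt-Cytb and 0% for mt-Nd1. For mt-Atp8 no annotated transcript held a copy. The place between the copies of mt-Co2 and mt-Atp6, where mt-Atp8 would lie, is 233 bases long on chromosome 1, against 230 bases in the mitochondrial genome, and its sequence was not analysed here.

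Levels per length differed widely among the mRNAs. Per kilobase of gene, mt-Nd1, mt-Nd2, mt-Co1, mt-Nd4, mt-Nd5 and mt-Cytb, of which 0% to 62.2% of the windows were copied exactly, had mean levels between 378 and 4200 CPM per kb over both groups. The 5 mRNAs with 98.0% or more of their windows copied had between 6.04 and 101 CPM per kb. mt-Atp8 was low too, with 16.4 CPM per kb in the libraries labelled Zfx F5 and 13.4 CPM per kb in those labelled WT. No annotated transcript held a copy of mt-Atp8, but whether chromosome 1 holds one without annotation was not tested. The light-strand mRNA mt-Nd6 had 97.0 CPM per kb in the libraries labelled Zfx F5 and 59.2 CPM per kb in those labelled WT, without any exact copy, although 51.1% of its windows had one with up to 2 mismatches. The pseudogenes that hold the copies were low as well, and all 14 that had a row in the table summed to 452 to 802 reads per library. No source used here gives how reads that match several places were counted, and the part of the copies in the low values of these genes was not tested. The level order of the 13 genes is therefore that of the reads counted.

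**Figure D1:**
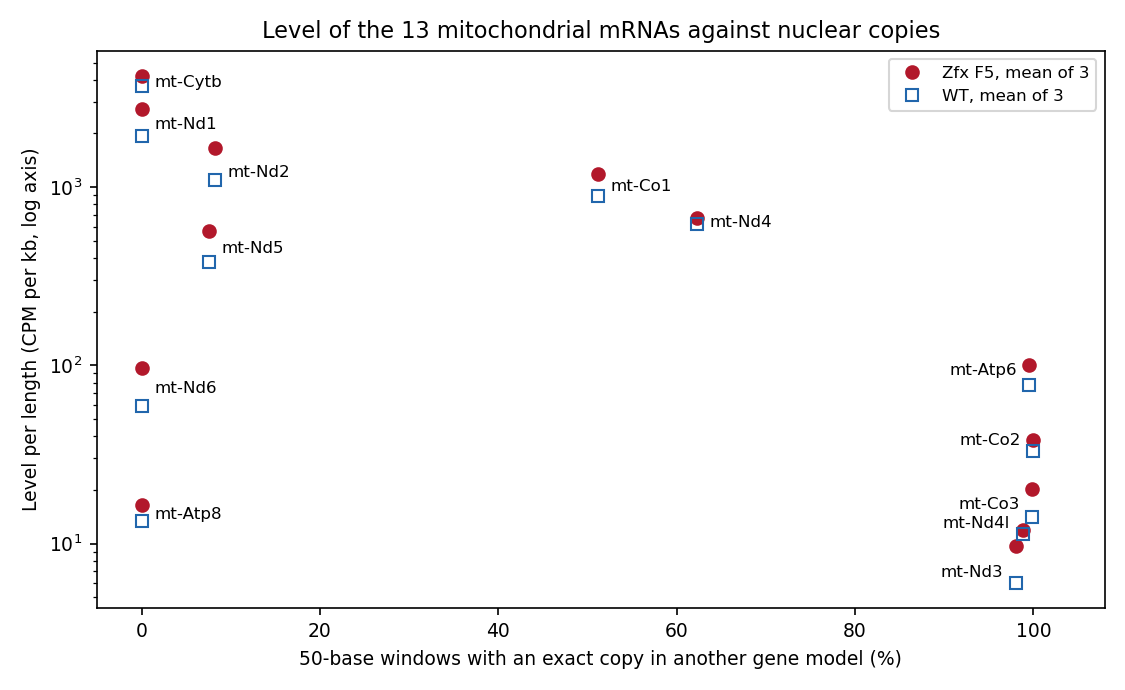
Mean level per length (CPM per kb, log axis) of the 13 mitochondrial mRNAs against the percentage of their 50-base windows that have an exact copy in another annotated gene, with filled circles for the 3 libraries labelled Zfx F5 and open squares for the 3 labelled WT. The 5 genes at 98.0% or more lie at or under 101 CPM per kb, as do mt-Nd6 and mt-Atp8 at 0%.

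Both rRNAs, the structural RNAs of the mitochondrial ribosome, were close to absent from the table. The small-subunit rRNA mt-Rnr1 had 0, 0 and 2 reads in the libraries labelled Zfx F5 and 0, 1 and 1 in those labelled WT. The large-subunit rRNA mt-Rnr2 had 7, 4 and 4 reads against 2, 0 and 6. The groups overlapped for both, and with 0 reads a library still allows 3 reads, or 0.124 to 0.159 CPM. Exact nuclear copies covered 0% of the windows of mt-Rnr1 and 1.04% of those of mt-Rnr2. The 354 nuclear rRNA rows were as low, with at most 4 reads in a row and library. No source used here gives whether rRNA was removed from the RNA or from the reads. The balance of rRNA and mRNA cannot be drawn from counts of this size.

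Of the 22 tRNAs, 13 had 0 reads in all 6 libraries, 7 of them on the heavy strand and 6 on the light strand. They are 59 to 75 bases long, so that a read of 50 bases has only 10 to 26 places to lie wholly inside one. Apart from mt-Tl1, the highest count of a tRNA in any library was 10 reads, for the isoleucine tRNA mt-Ti, which had 7, 5 and 0 reads in the libraries labelled Zfx F5 and 10, 2 and 6 in those labelled WT. The light-strand tRNAs with any read, named after their values were seen, were mt-Ta, with at most 1 read per library, and mt-Tp, with 3, 1 and 3 against 4, 5 and 9 reads. No read balance between strands can be drawn from counts of this size.

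The leucine tRNA mt-Tl1 was the only tRNA above the filter, which keeps genes with a mean log2 value of at least 0. It lies directly upstream of mt-Nd1 with 0 bases between them, and the junction is shown because a read across it holds both RNAs. The stretch covers chrM:2676-2780 (plus strand, mm10), and capitals mark the first 30 bases of mt-Nd1.
mt-Tl1 and mt-Nd1: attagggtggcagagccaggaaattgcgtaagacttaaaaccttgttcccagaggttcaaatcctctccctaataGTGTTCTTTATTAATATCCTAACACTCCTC
It had 63, 75 and 71 reads (2.97, 3.80 and 3.12 CPM) in the libraries labelled Zfx F5, against 58, 44 and 54 reads (2.48, 2.33 and 2.23 CPM) in those labelled WT. The groups did not overlap, and mt-Tl1 rose 1.39-fold (log2 difference 0.48, SE 0.17, limma adjusted p = 0.0119). The call was lost without Zfx F5 replicate 2 (log2 difference 0.37, limma adjusted p = 0.0815). Its neighbour mt-Nd1 held 31342 to 60072 reads per library, and no source used here gives how a read across the junction was assigned.

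Among the 13 mRNAs, 7 rose and 6 did not pass the test in the libraries labelled Zfx F5, and none fell under the main scaling, whereas with quantile normalization 5 rose and mt-Cytb fell. The share that rose is 53.8%, beside 37.0% of all 12279 genes tested that were called higher. The 5 of 13 with quantile normalization are near that 37.0%. The 13 mRNAs are not 13 separate observations. Of them, 12 are heavy-strand transcripts, and WT replicate 3 was the highest library labelled WT for all 12. All 13 differences were above 0, with a median log2 difference of 0.41 beside 0.02 over all genes tested, although with quantile normalization 11 of 13 were above 0. Without WT replicate 2, 12 of 13 were above 0, with a median of 0.35. The groups did not overlap for 7 of the 13, all higher in the libraries labelled Zfx F5, where 37.8% of all genes tested were higher without overlap and 74.3% did not overlap in either direction. The test was limma on the log2 values with Benjamini-Hochberg adjustment over all genes tested. Of the 37 genes, 14 passed the filter: the 13 mRNAs and mt-Tl1.

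**Figure D2:**
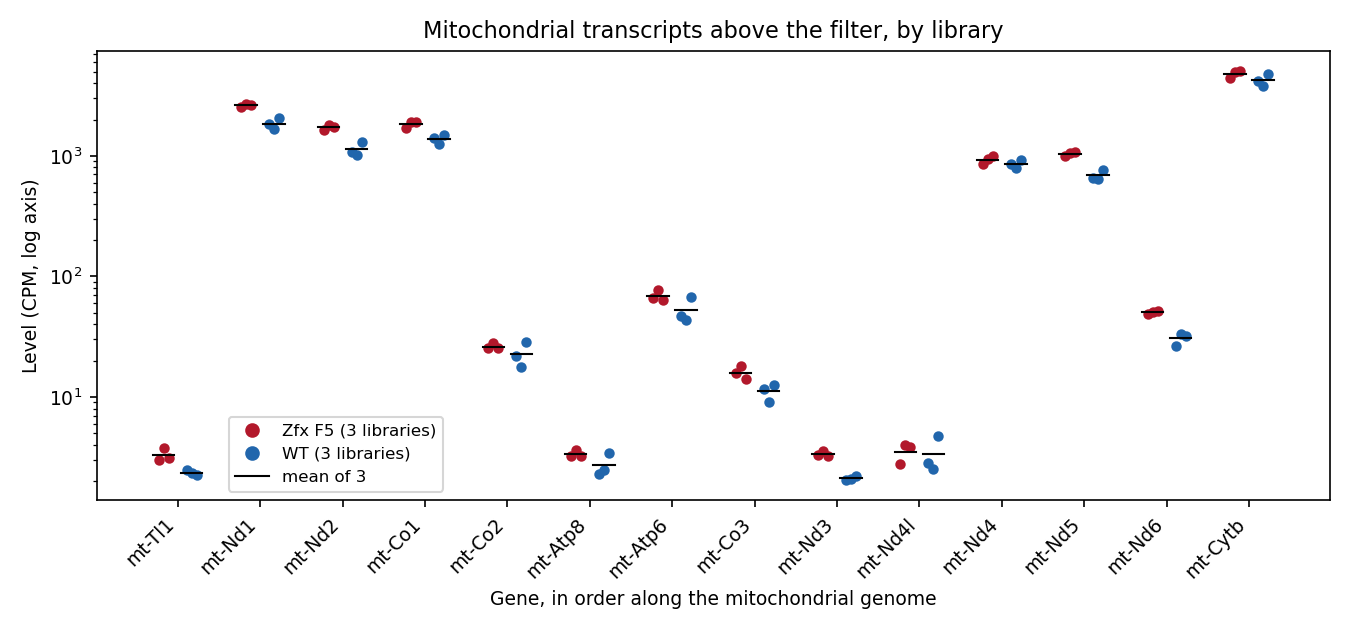
Level of the 13 mRNAs and mt-Tl1 in each library (CPM, log axis), in the order of the genes along the mitochondrial genome, with the libraries labelled Zfx F5 left of those labelled WT and a line at each mean of 3. The levels run from 2.05 CPM for mt-Nd3 to 5035 CPM for mt-Cytb.

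Complex I, the NADH dehydrogenase that feeds electrons into the chain, has 7 subunits encoded here, of which 5 rose. The membrane subunit gene mt-Nd1 had 2548, 2703 and 2641 CPM in the libraries labelled Zfx F5, against 1832, 1660 and 2054 CPM in those labelled WT. Every library labelled Zfx F5 lay above every library labelled WT. It rose 1.43-fold (log2 difference 0.51, SE 0.088, limma adjusted p = 0.00484). Of its 908 windows, 0% had a copy in another annotated gene, exact or with up to 2 mismatches. With quantile normalization the call was lost (log2 difference 0.11, limma adjusted p = 0.359).

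The proton-pumping subunit gene mt-Nd2 had 1632.5, 1785 and 1738 CPM in the libraries labelled Zfx F5, against 1081, 1020 and 1304 CPM in those labelled WT. The groups stood clearly apart, and mt-Nd2 rose 1.52-fold (log2 difference 0.61, SE 0.109, limma adjusted p = 0.00633). The largest subunit gene, mt-Nd5, had 987, 1053 and 1072 CPM in the libraries labelled Zfx F5, against 657, 646 and 764 CPM in those labelled WT. It rose 1.51-fold (log2 difference 0.59, SE 0.075, limma adjusted p = 0.000745), again without overlap. Both kept their call with quantile normalization, at log2 differences of 0.42 and 0.46.

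mt-Nd4, another pumping subunit gene of complex I, did not follow them. It had 851, 942 and 988 CPM in the libraries labelled Zfx F5, against 860, 787 and 920 CPM in those labelled WT. The groups overlapped, and the log2 difference was 0.12 (95% interval -0.11 to 0.34, limma adjusted p = 0.277). Without Zfx F5 replicate 1, the lowest of its group, the difference was 0.18 and passed (limma adjusted p = 0.00779). Of its 1329 windows, 502 had no exact copy, so most of its length is shared with the pseudogene Gm28439.

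The small subunit genes mt-Nd3 and mt-Nd4l lie inside the chromosome 1 copy and had few reads. mt-Nd3 had 3.30, 3.54 and 3.21 CPM in the libraries labelled Zfx F5, against 2.05, 2.07 and 2.19 CPM in those labelled WT, which rest on 39 to 73 reads per library. It rose 1.58-fold without overlap (log2 difference 0.66, SE 0.167, limma adjusted p = 0.000722). mt-Nd4l had 2.78, 3.95 and 3.82 CPM against 2.82, 2.54 and 4.74 CPM, so its highest and lowest values both came from libraries labelled WT. Its log2 difference was 0.10 (95% interval -0.34 to 0.54, limma adjusted p = 0.682).

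mt-Nd6, the complex I gene on the light strand, had the largest log2 difference of the 13 mRNAs under the main scaling. It had 48.5, 51.0 and 51.4 CPM in the libraries labelled Zfx F5, against 26.6, 33.5 and 32.1 CPM in those labelled WT, from 621 to 1170 reads per library. The lowest library labelled Zfx F5 was well above the highest labelled WT. It rose 1.64-fold (log2 difference 0.72, SE 0.069, limma adjusted p = 8.22e-09), and the call held in all 15 alternatives that were run. The labels' protocols name Nextera XT, a kit that does not mark strand. If it was used, reads of mt-Nd6 and reads from the other strand over the same place cannot be told apart.

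The ends of mt-Nd5 and mt-Nd6 overlap by 14 bases, which are shown because strand and neighbour meet there. The stretch is chrM:13532-13585 on the plus strand of mm10, the sense strand of mt-Nd5, and capitals mark the bases in both genes.
mt-Nd5 and mt-Nd6: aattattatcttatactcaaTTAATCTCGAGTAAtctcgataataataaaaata
Relative to the summed CPM of the 12 heavy-strand mRNAs, mt-Nd6 stood at 0.397%, 0.378% and 0.381% in the libraries labelled Zfx F5, against 0.264%, 0.363% and 0.281% in those labelled WT. These ratios did not overlap, but WT replicate 2 lay close to the other group. Relative to mt-Nd5 alone, mt-Nd6 stood at 0.0491, 0.0484 and 0.0480 against 0.0404, 0.0519 and 0.0420, and the groups overlapped (exact permutation test, 2-sided p = 0.4, where 3 against 3 libraries cannot go below 0.1). With so few libraries this test can neither show nor exclude a difference between mt-Nd6 and mt-Nd5.

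**Figure D3:**
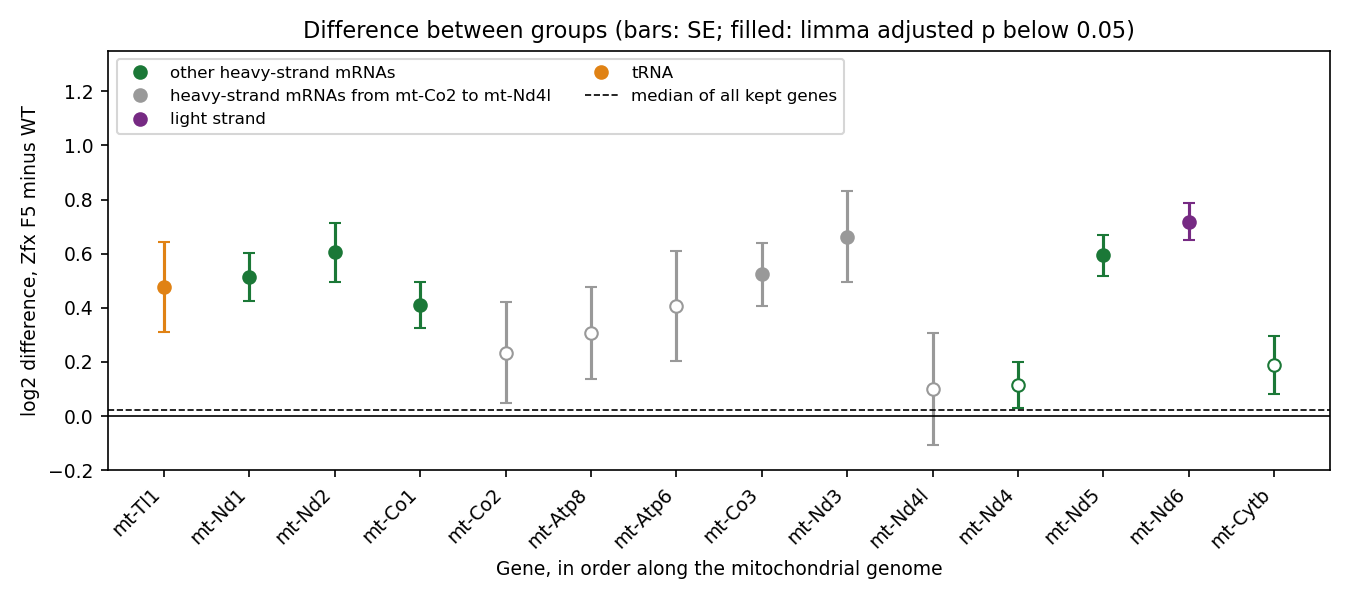
Log2 difference (Zfx F5 minus WT) with its SE for the 13 mRNAs and mt-Tl1 in genome order, coloured by strand and class, with grey for the 6 mRNAs from mt-Co2 to mt-Nd4l, filled where the limma adjusted p is below 0.05, with the median of all genes tested as a dashed line. All 14 points lie above 0 under the main scaling; with quantile normalization mt-Cytb and mt-Nd4 lie below 0, at -0.38 and -0.04.

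The cytochrome b gene mt-Cytb, the only subunit of complex III encoded here, was the highest member. It had 4391, 4988 and 5035 CPM in the libraries labelled Zfx F5, against 4138, 3796 and 4743 CPM in those labelled WT. WT replicate 3 lay above Zfx F5 replicate 1, so the groups overlapped. The log2 difference was 0.19 (95% interval -0.10 to 0.48, limma adjusted p = 0.188), but -0.38 with quantile normalization (limma adjusted p = 3.05e-14).

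Of the 3 subunit genes of complex IV, the cytochrome c oxidase that reduces oxygen, 2 rose. The catalytic subunit gene mt-Co1 had 1688, 1899 and 1924 CPM in the libraries labelled Zfx F5, against 1402, 1263 and 1483 CPM in those labelled WT. The groups did not overlap, and it rose 1.33-fold (log2 difference 0.41, SE 0.086, limma adjusted p = 0.00958). Its call was lost with quantile normalization (limma adjusted p = 0.206) and without a filter (limma adjusted p = 0.0588).

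mt-Co3 had 15.7, 17.9 and 14.1 CPM in the libraries labelled Zfx F5, against 11.7, 9.01 and 12.6 CPM in those labelled WT. It rose 1.44-fold (log2 difference 0.52, SE 0.116, limma adjusted p = 0.000643). Of its 735 windows, 734 had an exact copy in Gm28437, so reads of mt-Co3 and of this copy cannot be told apart there. mt-Co2, the subunit that takes electrons from cytochrome c, had 25.3, 27.8 and 25.3 CPM against 21.9, 17.6 and 28.4 CPM. WT replicate 3 was the highest of its 6 libraries, and the log2 difference was 0.23 (95% interval -0.24 to 0.71, limma adjusted p = 0.310).

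Neither gene of complex V, the ATP synthase, passed. mt-Atp6, the subunit of the proton channel, had 66.7, 76.5 and 63.2 CPM in the libraries labelled Zfx F5, against 46.9, 43.6 and 67.6 CPM in those labelled WT (limma adjusted p = 0.140). The short gene mt-Atp8 had 3.21, 3.64 and 3.21 CPM against 2.31, 2.49 and 3.42 CPM (limma adjusted p = 0.106). Both genes share 43 bases, and in both WT replicate 3 overlapped with the other group.

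Single libraries labelled WT moved several of these values. WT replicate 2 was the lowest library labelled WT for 10 of the 12 heavy-strand mRNAs. Without it 7 of 13 mRNAs rose, and 12 of 13 differences were above 0. The log2 difference was then 0.07 for mt-Co2 and -0.07 for mt-Nd4l. WT replicate 3 was the highest library labelled WT for all 12 heavy-strand mRNAs. Without it 10 of 13 mRNAs rose, since mt-Co2 (log2 difference 0.41, limma adjusted p = 2.54e-05), mt-Atp8 (0.47, limma adjusted p = 0.0199) and mt-Atp6 (0.60, limma adjusted p = 1.47e-07) passed as well. The summed level of the 7 chromosome 1 pseudogenes moved likewise, with 30.6, 33.96 and 28.4 CPM in the libraries labelled Zfx F5, against 20.4, 19.8 and 24.3 CPM in those labelled WT, of which WT replicate 3 again was the highest. Of these pseudogenes, Gm28437 rose (log2 difference 0.56, SE 0.094, limma adjusted p = 3.64e-06), and so did Gm10925, the copy of mt-Atp6 (log2 difference 0.59, SE 0.123, limma adjusted p = 0.000269). Gm28661, Gm29216 and Gm28439, the copies of mt-Co2, mt-Co1 and mt-Nd4, had 13 to 40 reads per library and did not pass. On chromosome 2, Gm13340 rose with 80, 71 and 90 reads in the libraries labelled Zfx F5, against 60, 54 and 69 in those labelled WT (log2 difference 0.45, limma adjusted p = 0.00977). Gm28438, Gm13341, Gm13339 and Gm11407 were below the filter, with 4 to 34 reads per library. Reads of a gene and its copy cannot be told apart where they are identical.

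Together the 37 genes took 1.23%, 1.36% and 1.36% of the reads in the libraries labelled Zfx F5, against 1.01%, 0.929% and 1.14% in those labelled WT. The groups did not overlap, and the log2 ratio of the means was 0.36. The mRNAs held 175232 to 308508 of these reads per library, the tRNAs 63 to 90 and the rRNAs 1 to 7. A CPM is a share of the reads counted, so more mitochondrial RNA per cell and less of other RNA per cell cannot be told apart, nor can fewer cells of a type and less RNA per cell. With each library scaled to its reads from nuclear genes, 7 of 13 mRNAs rose. That scaling moved the median log2 difference over the genes tested by only 0.004, so it cannot decide between these readings.

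Within the mitochondrial mRNA reads, the make-up differed between the groups. mt-Cytb took 35.8%, 36.8% and 37.1% of them in the libraries labelled Zfx F5, against 41.0%, 40.9% and 41.5% in those labelled WT. mt-Nd4 took 6.94%, 6.95% and 7.28% against 8.52%, 8.48% and 8.06%. The shares of mt-Nd1, mt-Nd2 and mt-Nd5 were higher in the libraries labelled Zfx F5, at 20.1%, 13.1% and 7.91% on average, against 18.0%, 11.04% and 6.72% in those labelled WT, also without overlap. mt-Co1 took 14.0% on average against 13.5%, and its groups overlapped.

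Ratios between 2 genes restate these shares gene against gene and are not separate evidence. No scaling factor of a library can move the ratios or the shares. mt-Nd5 over mt-Nd4, which lie beside each other on the heavy strand with 3 tRNAs between them, stood at 1.16, 1.12 and 1.09 in the libraries labelled Zfx F5, against 0.764, 0.821 and 0.830 in those labelled WT. mt-Nd5 over mt-Cytb stood at 0.225, 0.211 and 0.213 against 0.159, 0.170 and 0.161. mt-Nd1 over mt-Nd5 stood at 2.58, 2.57 and 2.46 against 2.79, 2.57 and 2.69, and its groups overlapped (exact permutation test, 2-sided p = 0.2). mt-Nd1 over mt-Cytb stood at 0.580, 0.542 and 0.524 against 0.443, 0.437 and 0.433, and mt-Nd2 over mt-Nd1 at 0.641, 0.660 and 0.658 against 0.590, 0.615 and 0.635. Of 7 ratios compared, counting those of mt-Nd6 above, 5 did not overlap. For these 5 the exact permutation test gave a 2-sided p of 0.1, the smallest possible with 20 assignments, and 0.14 after Benjamini-Hochberg adjustment over the 7, which were chosen after the values of the genes were seen. These ratios are of CPM, not of levels per length.

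**Figure D4:**
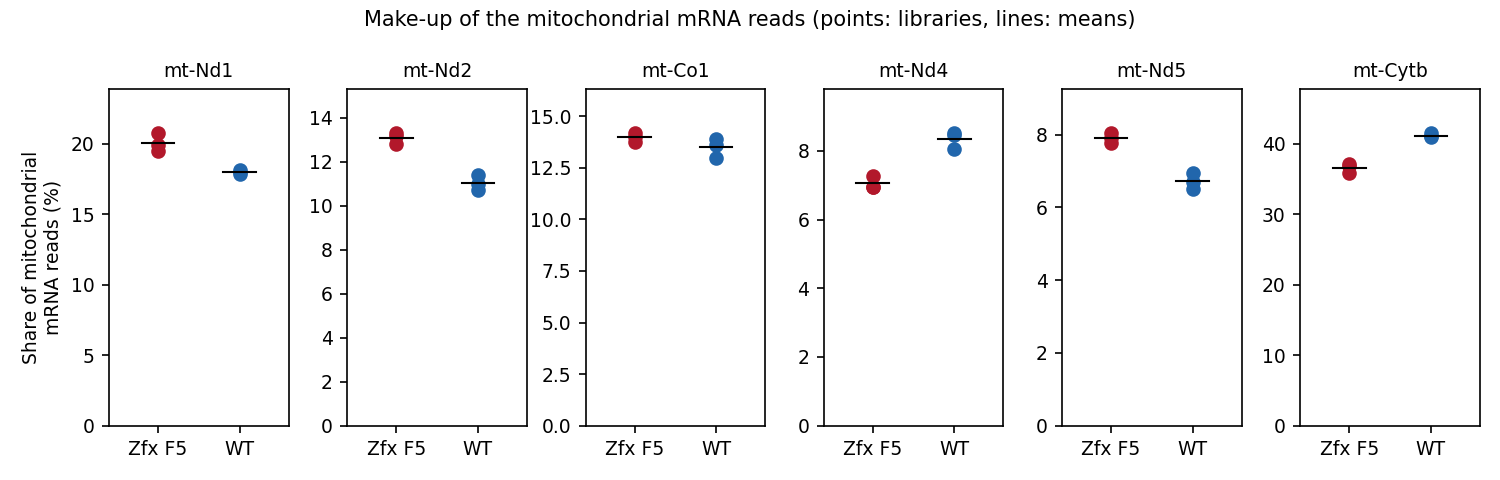
Share of all mitochondrial mRNA reads (%) taken by the 6 most abundant mRNAs in each library, with the libraries labelled Zfx F5 left of those labelled WT, lines at the means and each axis starting at 0. mt-Cytb (36.6% against 41.2% on average) and mt-Nd4 (7.06% against 8.35%) took less in the libraries labelled Zfx F5, and mt-Nd1, mt-Nd2 and mt-Nd5 more.

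The nuclear genes listed for transcription of mitochondrial DNA, some of which have other roles, were partly higher in the libraries labelled Zfx F5. Of 13 genes tested in the list for mitochondrial transcription and its regulators, 8 rose, none fell and 5 did not pass, beside 37.0% of all genes tested that were called higher and 35.9% that were called lower. The median log2 difference was 0.27, beside 0.02 over all genes tested. The count that rose was 6 without trend and robust moderation, 7 with TMM scaling or without a filter, and 9 with quantile normalization. The polymerase gene Polrmt had 98.6, 87.9 and 99.1 CPM in the libraries labelled Zfx F5, against 71.8, 73.8 and 67.4 CPM in those labelled WT. It rose 1.34-fold (log2 difference 0.42, SE 0.048, limma adjusted p = 6.76e-09). Tfb2m, which opens the promoter with Polrmt, had 11.4, 11.1 and 10.99 CPM against 7.36, 8.32 and 7.18 CPM, a rise of 1.47-fold. The elongation factor gene Tefm rose 1.37-fold, the mitochondrial topoisomerase gene Top1mt 1.62-fold and the rRNA methyltransferase gene Tfb1m 1.52-fold. Tfb1m is also counted in the list for rRNA and tRNA modification below.

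Tfam, which packages mitochondrial DNA and starts transcription, differed little. It had 130, 131 and 126 CPM in the libraries labelled Zfx F5, against 123, 118 and 121 CPM in those labelled WT. The groups stood apart by a narrow margin, and the rise was 1.07-fold (log2 difference 0.10, limma adjusted p = 0.0192). The call was lost with TMM scaling (limma adjusted p = 0.129), without a filter (limma adjusted p = 0.0733), without trend and robust moderation (limma adjusted p = 0.0538), and without Zfx F5 replicate 1 (limma adjusted p = 0.0660), Zfx F5 replicate 2 (limma adjusted p = 0.0741) or WT replicate 2 (limma adjusted p = 0.0915).

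In the list for replication and maintenance of mitochondrial DNA, 8 of 18 genes tested rose and 5 fell, near the 37.0% higher and 35.9% lower of all genes tested. The median log2 difference was 0.03, but 4 rose with TMM scaling, without a filter or without Zfx F5 replicate 1, and 5 without Zfx F5 replicate 2 or without WT replicate 2. Dna2, a nuclease and helicase of nucleus and mitochondria, had 65.5, 65.2 and 62.2 CPM in the libraries labelled Zfx F5, against 22.1, 23.7 and 24.2 CPM in those labelled WT, a rise of 2.75-fold (log2 difference 1.46, SE 0.054, limma adjusted p = 8.36e-21). The replicative helicase gene Twnk, which like Tfam is in the transcription list too, rose 1.33-fold and the single-strand binding protein gene Ssbp1 1.29-fold. Tk2, the mitochondrial thymidine kinase gene, was 1.31-fold lower.

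In the list for processing, stability and decay of mitochondrial RNA, 15 of 23 genes rose and 5 fell, beside 37.0% higher and 35.9% lower of all genes tested, with a median log2 difference of 0.21. 1110008L16Rik, which encodes the nuclease that cuts the 5′ ends of mitochondrial tRNAs, rose 1.51-fold, with 25.4, 28.5 and 28.2 CPM in the libraries labelled Zfx F5, against 18.6, 16.95 and 18.7 CPM in those labelled WT. Fastkd3, of a family that acts on single mitochondrial mRNAs, rose 1.57-fold. Grsf1, an RNA granule protein gene that in human cells takes part in handling light-strand transcripts, fell to 99.8, 101 and 97.0 CPM in the libraries labelled Zfx F5, against 169, 165 and 172 CPM in those labelled WT, 1.70-fold lower (limma adjusted p = 8.53e-18). Pde12, which removes poly(A) tails in mitochondria, was 1.47-fold lower.

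Of 25 genes that modify mitochondrial rRNA and tRNA, 13 rose and 4 fell, beside the same 37.0% higher and 35.9% lower of all genes tested, with a median log2 difference of 0.21. The rRNA methyltransferase gene Nsun4 rose 1.79-fold, Ngrn, a ribosome assembly factor gene, 1.67-fold and the pseudouridine synthase gene Rpusd3 1.61-fold, while Trmu, which thiolates mitochondrial tRNAs, was 1.74-fold lower. Of 13 mitochondrial translation factor genes 9 rose and 1 fell, beside 37.0% and 35.9% of all genes tested, with a median log2 difference of 0.20. The elongation factor gene Tufm rose 1.43-fold, the release factor gene Mtrf1 and the ribosome recycling factor gene Mrrf 1.41-fold each, and the initiation factor gene Mtif2 1.36-fold. The gene that fell, named after its value was seen, was the insertase gene Oxa1l (log2 difference -0.10, limma adjusted p = 0.0478), and it did not pass in several settings, with limma adjusted p of up to 0.494 under quantile normalization.

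**Figure D5:**
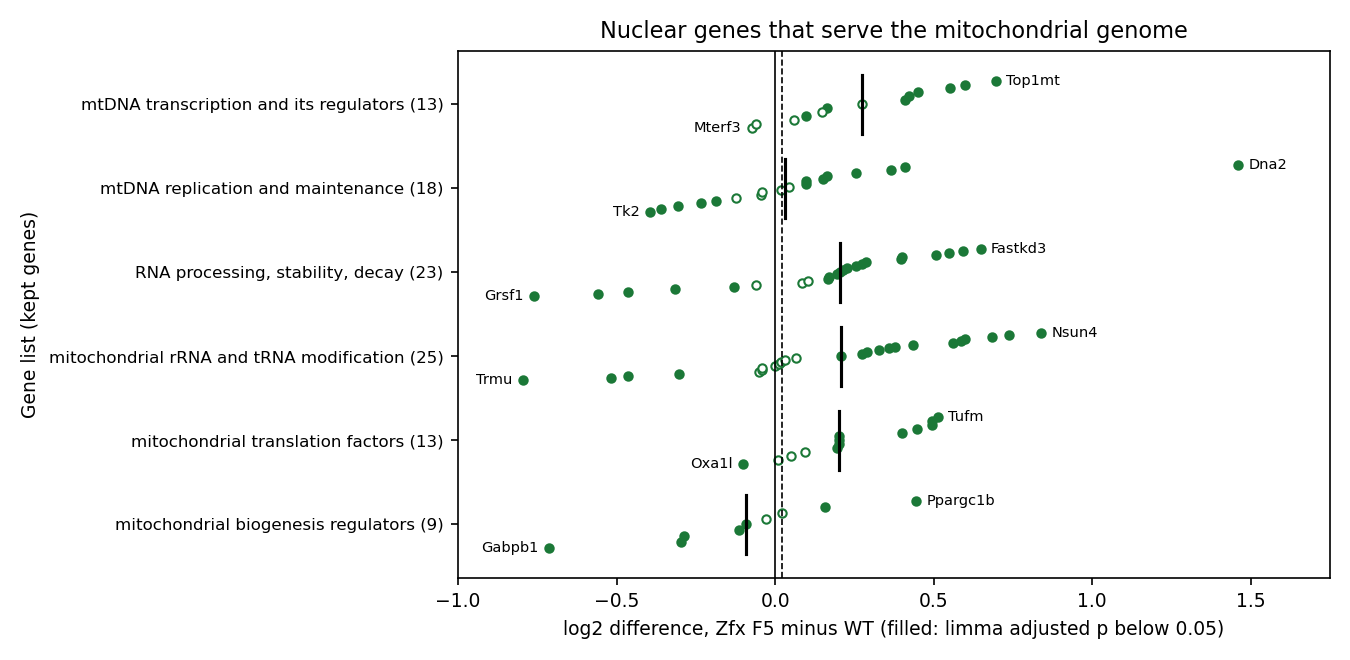
Log2 difference (Zfx F5 minus WT) of the tested genes in 6 lists of nuclear genes, with 1 point per gene, filled where the limma adjusted p is below 0.05, a black bar at each list's median and a dashed line at the median of all genes tested. The medians are 0.27, 0.03, 0.21, 0.21, 0.20 and -0.09 from top to bottom; with TMM scaling the second is -0.003.

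Of 9 regulators of mitochondrial biogenesis tested, 2 rose and 5 fell, beside 37.0% higher and 35.9% lower of all genes tested, with a median log2 difference of -0.09, but 3 fell with quantile normalization or without trend and robust moderation, which is near the share of all genes. Gabpb1, a subunit of the factor that drives nuclear genes of the respiratory chain, had 37.9, 39.1 and 38.3 CPM in the libraries labelled Zfx F5, against 62.5, 61.5 and 65.2 CPM in those labelled WT, 1.64-fold lower (log2 difference -0.71, SE 0.049, limma adjusted p = 3.17e-14). Nrf1, the nuclear respiratory factor gene, was 1.23-fold lower and Yy1 1.22-fold lower. The coactivator gene Ppargc1b rose 1.36-fold. Its relative Ppargc1a, named after its values were seen and below the filter, had 1 read over the libraries labelled Zfx F5 and 95 over those labelled WT, a ratio of pooled CPM of WT over Zfx F5 of 91.0 with an exact 95% counting interval of 15.9 to 3633.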

How the data were processed

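RNA sequencing values of 6 libraries were used, 3 labelled Zfx F5 and 3 labelled WT. The authors deposited 1 table of normalized log2 values, with an exon length per gene; no source used here names the aligner or the counting program. The submitters' processing notes list mm10 and GRCh38. The lowest deposited log2 value, -4.82, is the same in all columns, and undoing the log and subtracting it left columns that sum to 1000000, so the values are log2(CPM + 0.0353). Reads were recovered from the CPM steps: for values of up to 300 reads, 100% were whole within 0.05 read. The design text speaks of cultured cells and the extract protocol of sorted tumour cells. Intervals and limits from reads cover counting error only.

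The deposited log2 values of both groups entered limma 3.58.1 (R 4.3.3), with variance trend and robust moderation, for genes with a mean log2 value of at least 0 and Benjamini-Hochberg adjustment at 0.05. Differences are on the log2(CPM + 0.0353) scale, which understates those of low genes. Positions and strands come from GENCODE M21 (mm10), where all 37 members matched, and the sequences are from its transcripts. Windows of 50 bases, the read length in the labels' protocols, were searched in Python 3.11.15, exactly and with up to 2 mismatches. The same limma settings were run on simulated counts, in which far fewer genes changed than were called here. That run does not check the scaling of these data. Named were all mRNAs and rRNAs, tRNAs above the filter or with at least 10 reads in a library, and nuclear copies with at least 10; from each list of nuclear genes up to 4 genes past the threshold without overlap were named by size of difference, plus Polrmt, Tfam and Tfb2m. The members and lists were chosen with earlier results of these data known. Replicate numbers follow accession order and pair nothing.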

Additional observations from a re-analysis of the deposited data

How the results depend on the processing

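No paired analysis was possible because the labels give no replicate numbers. The planned count-model tests were not run, since the deposited unit is log2; limma with voom weights on the recovered reads, chosen after seeing the data, took their place and called 8950 genes and 7 higher mRNAs. Of the 12279 genes tested 8953 passed, and 8078 to 9353 did in the other settings (8542 to 8748 when 1 library was left out). The count of higher mRNAs was 5 with quantile normalization, 6 with the stricter filter, which tested 10 of them, and 7 to 10 when 1 library was left out. The count of lower mRNAs was 0, but 1 with quantile normalization, where mt-Cytb had a log2 difference of -0.38 (limma adjusted p = 3.05e-14); the cause was not tested. mt-Co2 passed without a filter (limma adjusted p = 0.0131). The log2 ratio of the mitochondrial share of reads, 0.36, lay between 0.29 and 0.44 when 1 library was left out and was 0.34 from pooled reads. That of mt-Nd6 over the heavy-strand mRNAs, 0.35, lay between 0.26 and 0.50, was 0.38 from pooled reads and 0.12 relative to mt-Nd5. That of the rRNAs, 0.64, lay between 0.28 and 1.53 and rests on 27 reads. The rRNAs and the tRNAs are limited by their few reads, and why these were few was not tested. mt-Atp6, with 823 to 1638 reads per library, had an SE of 0.204, and of 0.066 without WT replicate 3. Why it did not pass was not tested.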
